A study of Mus musculus with 8 samples.

Results

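Gm26917, Gm42418, AY036118 and Lars2 are 4 of the 55471 mouse genes in the count table, matched by gene identifier. Gm26917 was chosen by its count, the highest of any gene in every pull-down library, and the other loci because they are known to collect reads of ribosomal RNA (rRNA). The abundance that chose Gm26917 is therefore given below as a description, with no test. In these data only Gm26917 and Gm42418 stood higher in the pull-downs than in Input. AY036118 had no count in any library, and the pull-down values of Lars2 overlapped its Input. The counts of these 2 therefore do not show the rise of the other pair, and whether either holds rRNA reads was not tested.

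The libraries came from spinal motor neurons differentiated from the mouse embryonic stem cell line HBG3, which carries the motor neuron reporter HB9::GFP, and kept for 3 days after plating on polyornithine and laminin. DNA probes of 20 nt, antisense to their target and carrying biotin, were used for the pull-down. The ODD and EVEN sets were directed at the long noncoding RNA Lhx1os, the LacZ set at a bacterial mRNA that served as the negative control, and Input was RNA that had not been pulled down. Each of the 4 groups held 2 libraries, one from each of 2 independent experiments, numbered replicate 1 and replicate 2. All groups share the cell line, the differentiation and a stranded total-RNA library kit with an rRNA removal step, and 1 cell line limits how far the values describe motor neurons in general.

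Ribosomal RNA is made in the nucleolus as one long precursor. From its 5′ end the precursor reads through an external transcribed spacer, the 18S rRNA, an internal spacer, the 5.8S rRNA, a further spacer and the 28S rRNA, and the spacers are cut away and degraded. The repeated genes lie in arrays on several mouse chromosomes that are poorly assembled, and a single fragment on chromosome 17 is where many gene annotations meet rRNA sequence. Lars2 encodes the mitochondrial leucyl-tRNA synthetase, which loads leucine onto the mitochondrial leucine tRNA, and the end of its mRNA contains a short stretch resembling rRNA.

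On GRCm38, Gm26917 (ENSMUSG00000097971, annotated as a long intergenic noncoding RNA) spans chr17:39843013-39846341 on the plus strand, with 3329 exonic bases. RefSeq places the interval of the 18S-related sequence Rn18s-rs5 at chr17:39846354-39848202, 1849 bases long, and lists Gm42418 among its synonyms. It begins 12 bases past the end of Gm26917, and no base of Gm26917 lies in it or in another annotated exon. Gm42418 (ENSMUSG00000098178, long intergenic noncoding RNA) spans chr17:39846958-39848788 on the plus strand. Of its 1831 bases, 1245 lie in the Rn18s-rs5 interval and 586 lie past its end. AY036118 (ENSMUSG00000105361, long intergenic noncoding RNA) spans chr17:39847113-39848035 on the minus strand. All of its 923 bases lie opposite Gm42418, and all lie in exons of CT010467.1 (ENSMUSG00000106106), a gene of class rRNA on the same strand. Lars2 (ENSMUSG00000035202) is a protein-coding gene on another chromosome, at chr9:123366927-123462666 on the plus strand, with 11089 exonic bases over 9 annotated transcripts.

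**Figure D1:**
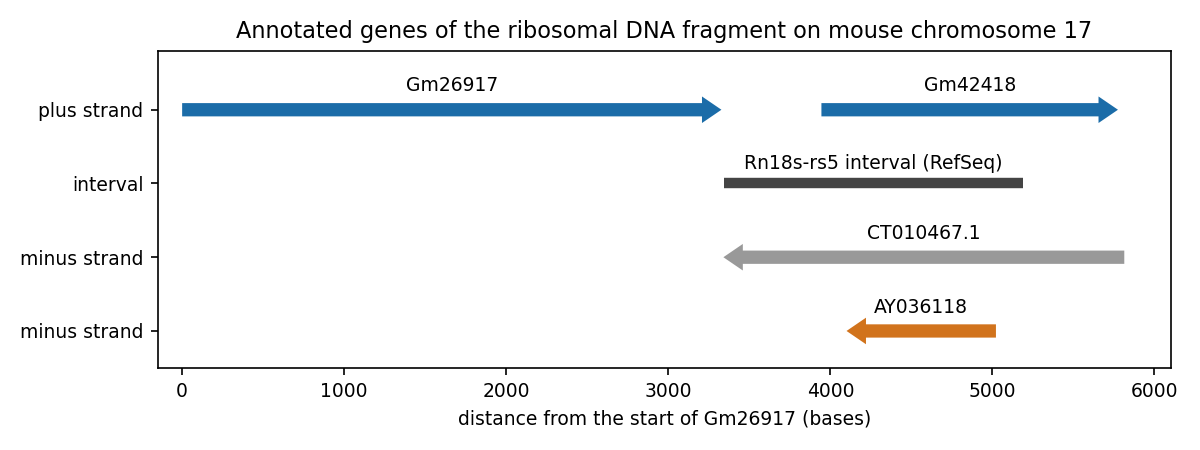
Positions of the annotated genes and of the RefSeq Rn18s-rs5 interval on chromosome 17, in bases from the start of Gm26917; arrows point 5′ to 3′ along each strand. Gm26917 ends 12 bases before the interval, Gm42418 runs across its end, and AY036118 and CT010467.1 lie on the opposite strand.

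The sequences below, from the GENCODE M21 transcripts on GRCm38, show what reads at these loci can represent. The first is the end of Gm26917 (chr17:39846231-39846338), shown because it holds the longest low-complexity stretch of the gene, in capitals, just before the rRNA interval. The next is Gm42418 at the end of the rRNA (chr17:39848142-39848261), shown because it crosses the border, with the last bases of the annotated rRNA transcript of CT010467.1, read on the other strand, in capitals and the bases past it in lower case. The last pair is the same stretch of chr17:39847113-39847172 read on both strands, as Gm42418 and as AY036118, shown because the 2 genes differ there by strand alone.
Gm26917, end: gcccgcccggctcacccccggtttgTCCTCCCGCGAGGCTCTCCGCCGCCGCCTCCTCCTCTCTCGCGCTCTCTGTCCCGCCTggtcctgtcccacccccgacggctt
Gm42418, border: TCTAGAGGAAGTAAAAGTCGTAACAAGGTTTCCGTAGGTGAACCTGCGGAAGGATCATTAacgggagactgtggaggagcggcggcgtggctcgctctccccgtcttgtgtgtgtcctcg
Gm42418, plus strand: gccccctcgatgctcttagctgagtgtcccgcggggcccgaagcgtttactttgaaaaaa
AY036118, minus strand: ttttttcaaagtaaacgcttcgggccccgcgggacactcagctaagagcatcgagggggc

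Lars2 shared no match with the chromosome 17 loci. Its 3′ UTR held a stretch of 72 nt, 370 bases after the stop codon (chr9:123462048-123462119), that matched Gm15564, another locus known to collect rRNA reads, at 71 of 72 positions. The 30-base pieces below hold the one mismatch, in capitals, A15T counted from 1 at the 5′ end of the piece with the Lars2 base first.
Lars2, 3′ UTR: gaacgtgagctgggAttagaccgtcgtgag
Gm15564: gaacgtgagctgggTttagaccgtcgtgag

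Base content was taken on the longest transcript of each gene, which for Lars2 has 3894 bases where its merged exons have 11089. The longest transcript of Gm26917 was 69.1% G and C, and only 0.115% of the other genes tested were as rich. That of Gm42418 was 60.2% G and C, reached by 3.83% of the other genes, and that of Lars2 was 51.2%, reached by 37.8%. Low-complexity sequence covered 2.91% of Gm26917, in 6 stretches of which the one printed above, 58 nt long at positions 3244 to 3301 of the transcript, was the longest, and 40.2% of the other genes had as high a share. It covered 1.69% of the longest transcript of Gm42418 and 0.18% of that of Lars2.

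The target of the probes was compared by sequence as well, again with the longest transcript of each gene. The longest stretch that Gm26917 shares exactly with Lhx1os was 11 nt, and 63.1% of the other genes tested shared a stretch as long. For Gm42418 it was 9 nt, reached by 99.2% of the other genes, and for Lars2 it was 10 nt, reached by 90.9%. The piece below shows that of Gm26917 in capitals (chr17:39843372-39843412), because it is the longest that the loci share with the target; a shared stretch is no measure of pairing.
Gm26917, shared with Lhx1os: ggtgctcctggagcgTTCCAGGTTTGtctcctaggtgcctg

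The libraries held 7632775 to 24628435 counts over genes, the 2 Input libraries being the deepest. Lhx1os, the captured RNA, had 2239 and 371 counts with ODD, 1767 and 283 with EVEN, 16 and 28 with LacZ, and 55 and 61 in Input. Its log2 fold change over Input was 5.36 with ODD (SE 1.10; edgeR quasi-likelihood, adjusted p = 0.0322) and 5.06 with EVEN (SE 1.08; adjusted p = 0.0433), with every ODD and EVEN library above every other library. All 6 motor neuron markers examined (Mnx1, Isl1, Lhx3, Chat, Slc18a3, Slc5a7) were measured, summing to 176 to 344 CPM (counts-per-million, scaled to depth) in Input. Progenitor markers (Sox2, Olig2, Pax6, Nes) summed to 1161 to 1575 CPM, and fibroblast markers (Col1a1, Col3a1, Dcn) to 81.4 to 162, so genes of other cell types were measured beside those of motor neurons. The astrocyte markers summed to 78.6 to 116 CPM, nearly all from Aldh1l1 (115 and 77.1 CPM), while Gfap and Aqp4 stayed under 1 CPM in both Input libraries. The pluripotency markers summed to 0.244 to 0.453 CPM, with Pou5f1 at 0 in both Input libraries.

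Gm26917, the locus of the 5′ spacer side of the fragment, was counted 42952 and 33277 times in the 2 Input libraries, replicate 1 first. It was counted 114299 and 207654 times with LacZ probes, 171549 and 216700 with ODD, and 165434 and 138603 with EVEN. Scaled to depth, with library sizes normalised by the trimmed mean of M values (TMM), these were 1769.6 and 1621 CPM in Input and 12457 to 20832 CPM in the pull-downs. All 6 pull-down libraries thus lay far above both Input libraries, and those of the control probes lay among those of the Lhx1os probes.

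Its share of all counts was 0.162% to 0.174% in Input and 1.2% to 2.11% in the pull-downs. In the pull-downs it was the first gene both by count and per length, at 3606 to 6334 FPKM (counts scaled to depth and to gene length). In Input it was 11th and 12th by count and 7th and 17th by FPKM, at 524 and 487 FPKM. The gene next in count in every pull-down, just outside the choice, was Malat1, a nuclear long noncoding RNA, with 0.901% to 1.1% of the counts. Within a library Gm26917 stood at 1.23 to 1.92 times the CPM of Malat1 in the pull-downs and at 0.617 and 0.301 times in Input.

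**Figure D2:**
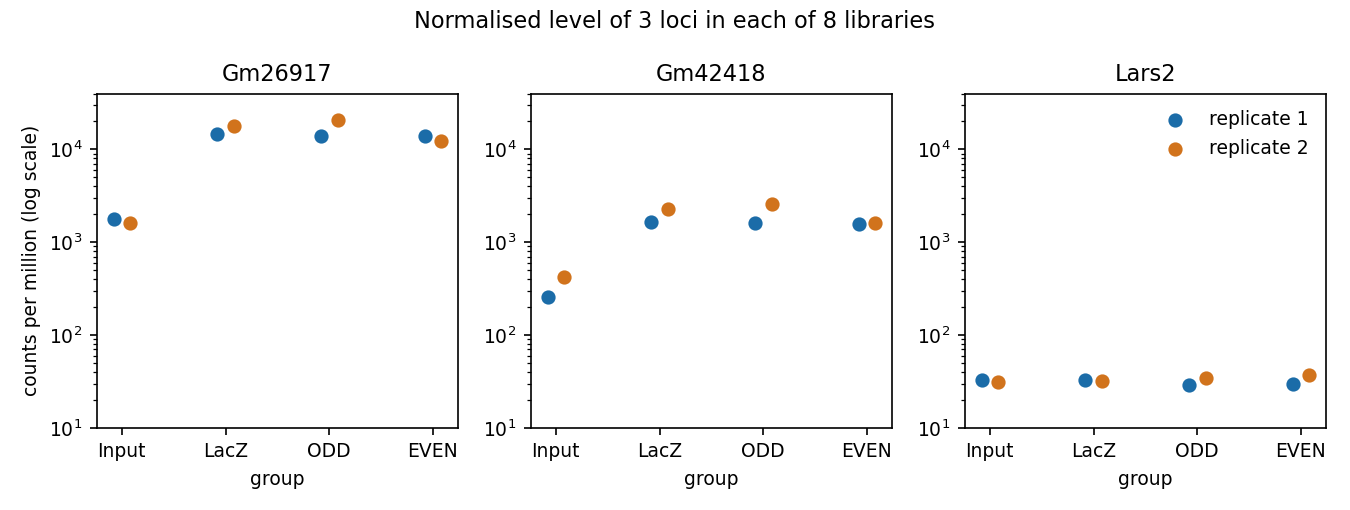
CPM on a log axis for Gm26917, Gm42418 and Lars2, with 1 point per library and the replicates in separate colours. All pull-down points of Gm26917 and Gm42418 lie above their Input points, while those of Lars2 lie between 29 and 37.3.

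As a description, Gm26917 was 3.27 log2 units above Input with LacZ, 3.35 with ODD and 2.96 with EVEN. Within replicate 1 the ratio to Input was 8.33 with LacZ, 7.8 with ODD and 7.91 with EVEN. Within replicate 2 it was 11.2, 12.9 and 7.69 in the same order. Among the 2755 genes with a mean of at least 100 CPM over the libraries, its fold change ranked 2nd with LacZ, 2nd with ODD and 3rd with EVEN. Kcnq1ot1, a long nuclear noncoding RNA of an imprinted cluster, ranked above it in all 3 comparisons. Over all 16524 genes tested, scarce ones included, it ranked 664th, 583rd and 641st.

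Gm42418, which carries the 3′ part of the 18S-related sequence and the spacer after it, was counted 6276 and 8714 times in Input. It was counted 12868 and 26336 times with LacZ, 19781 and 27067 with ODD, and 18466 and 17947 with EVEN. In CPM it stood at 259 and 424 in Input, 1659 and 2292 with LacZ, 1591 and 2602 with ODD, and 1562 and 1613 with EVEN. No pull-down library overlapped Input, and the lowest pull-down was an EVEN library.

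Gm42418 rose over Input in each pull-down, by 5.79 times with LacZ (log2 2.53, SE 0.36; edgeR, adjusted p = 0.00768), 6.14 times with ODD (2.62, SE 0.36; edgeR, adjusted p = 0.00791) and 4.65 times with EVEN (2.22, SE 0.35; edgeR, adjusted p = 0.0163). The 3 comparisons share the Input libraries. Of all genes tested, 6.98% were called higher with LacZ, 6.46% with ODD and 5.37% with EVEN, and with the replicate number as a block these shares were 12.7%, 12.6% and 12.8%. Without the first Input library the test was lost in all 3 comparisons (adjusted p = 0.073, 0.0749 and 0.127), and that with EVEN was also lost without either EVEN library (adjusted p = 0.0679 and 0.0505). Among the 2755 abundant genes its fold change ranked 4th with LacZ, 6th with ODD and 8th with EVEN. Per length it stood at 847 to 1438 FPKM in the pull-downs, 3rd to 6th of all genes, against 139 and 232 FPKM in Input.

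**Figure D3:**
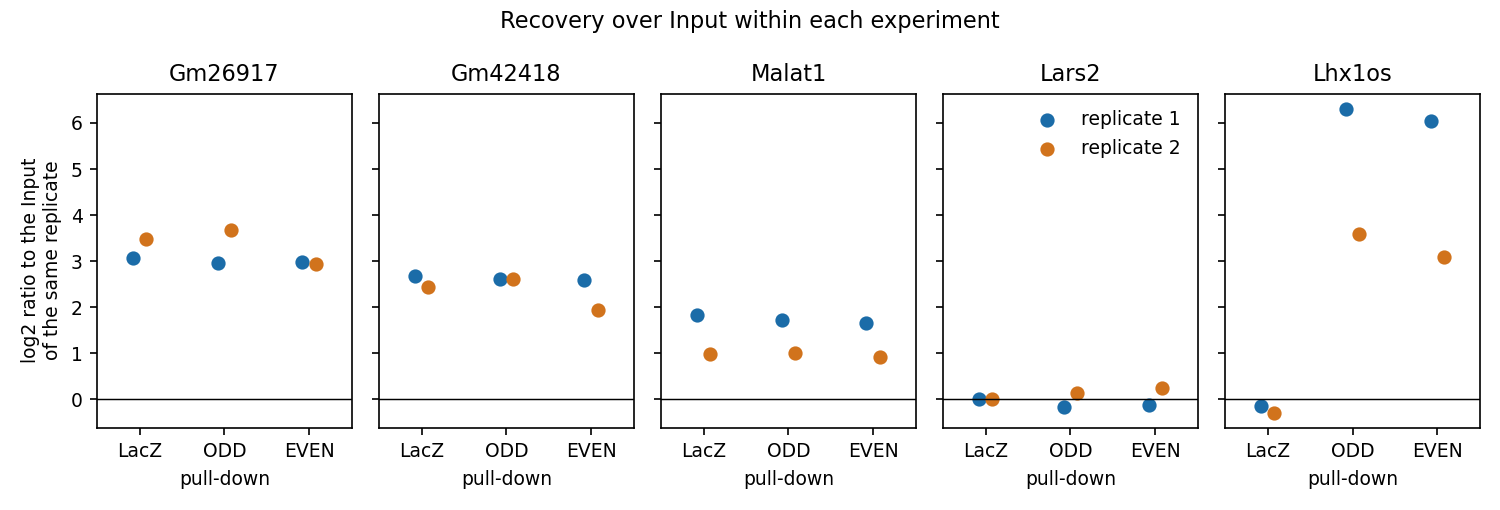
Log2 ratio of each pull-down to the Input library of the same replicate, for Gm26917, Gm42418, Malat1, Lars2 and the captured Lhx1os; the line at 0 marks the Input level. Gm26917 and Gm42418 lie at like heights with LacZ and with the Lhx1os probes, while Lhx1os lies near 0 with LacZ and at 3.10 to 6.31 with ODD and EVEN.

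The minus-strand rRNA gene CT010467.1, which lies opposite Gm42418, was counted far less. It had 20 and 24 counts in Input, 55 and 123 with LacZ, 65 and 87 with ODD, and 61 and 69 with EVEN. These made 0.275% (exact 95% interval 0.176% to 0.408%) to 0.465% (0.386% to 0.554%) of the counts of both genes together, the remainder falling on the plus strand, the strand of the rRNA precursor. Of the 2466 exonic bases of CT010467.1, 923 are shared with AY036118 on the same strand, so reads there may have been left uncounted and the share may be understated. The intervals cover counting error only. CT010467.1 stood higher than in Input as well, by 3.16 on the log2 scale with LacZ, 2.76 with ODD and 2.51 with EVEN (SE 0.39 in each). Its Input values, 0.824 and 1.17 CPM, lay near the filter on low counts, which its pull-down libraries passed. These differences are therefore given as a description. No source used here gives the strand setting of the authors' counting, so reads of a gene and its opposite partner may not have been told apart in full.

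AY036118 had 0 counts in all 8 libraries, 0 of 110219099 in total. For reads that the counting could assign to this gene, a count of 0 allows up to 3 counts. That is 0.0272 CPM over all libraries and 0.122 to 0.393 CPM in a single one (without TMM scaling). AY036118 lies wholly inside exons of CT010467.1 on its own strand. No source used here says how the counting assigned reads that fall in 2 genes, so this limit does not bound the RNA itself. The value is therefore a count of 0 in the table, and whether RNA of this strand was present was not tested. With AY036118 at 0, 3 of the 4 loci passed the filter on low counts.

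Lars2, the mitochondrial leucyl-tRNA synthetase, was counted 791 and 644 times in Input, 255 and 363 with LacZ, 360 and 359 with ODD, and 353 and 415 with EVEN. In CPM it stood at 32.6 and 31.4 in Input and at 29 to 37.3 in the pull-downs, which overlapped Input in each group. Its log2 difference from Input was 0.01 with LacZ (95% interval -0.42 to 0.44; edgeR, adjusted p = 0.987), -0.01 with ODD (-0.44 to 0.42; edgeR, adjusted p = 0.986) and 0.07 with EVEN (-0.36 to 0.50; edgeR, adjusted p = 0.898). These intervals do not reach the log2 changes of Gm42418, the lowest of which was 2.22.

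The level of Lars2 was then set beside its enzyme family. Per length of merged exons it was 2.86 FPKM ± 0.0463 (SD, n = 2) in Input, 14th of 18 genes comprising Lars2, 16 other mitochondrial aminoacyl-tRNA synthetases and their cytosolic leucine relative Lars. Of its neighbours in that order, Mars2, at 3.17 and 2.43 FPKM, overlapped its 2.9 and 2.83 FPKM, and Pars2 lay just above, at 3.33 and 2.93 FPKM. Lars was highest, at 19.9 and 17.1 FPKM. The order rests on the merged exons of Lars2, 11089 bases where its longest transcript has 3894. By CPM, with no length scaling, Lars, Iars2 and Tars2 lay above Lars2 in both Input libraries, Rars2 was level with it (33 and 31.4 CPM), and Lars2 was thus among the higher members. None of the 17 other genes was called against Input in any pull-down, beside 7.41% of all genes in either direction with LacZ, 6.84% with ODD and 5.66% with EVEN, and their median log2 difference was 0.17 at most. Gm15564, which shares the rRNA-like stretch with the Lars2 3′ UTR, had 0 to 2 counts per library.

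**Figure D4:**
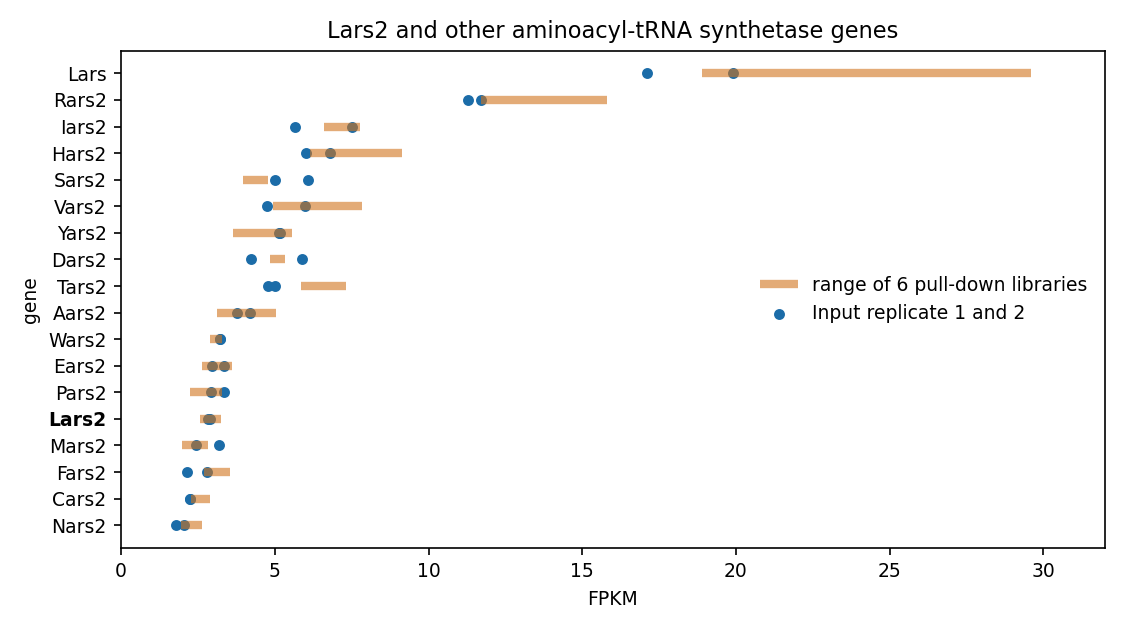
FPKM of Lars2 and 17 related aminoacyl-tRNA synthetase genes, ordered by their mean in Input; points are the 2 Input libraries and bars span the lowest to the highest of the 6 pull-down libraries. Lars2 lies at 2.58 to 3.24 in the pull-downs, around its Input values of 2.9 and 2.83.

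The pull-downs were then compared with each other, which shows whether the loci were recovered more with probes for Lhx1os than with control probes. No gene passed the test in any of these comparisons, so 0% of the 16524 genes tested were called. At an unadjusted p under 0.05, edgeR gave 170 genes between ODD and LacZ, 283 between EVEN and LacZ, 218 between the mean of both sets and LacZ, and 128 between ODD and EVEN. DESeq2 called 1, 13, 2 and 2 genes in the same order. The captured RNA itself, 5.42 log2 units above LacZ over both sets, had an adjusted p of 1 by edgeR (unadjusted p = 0.00172), so intervals are given beside the adjusted values.

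Gm26917 differed from LacZ by 0.08 on the log2 scale with ODD (95% interval -0.58 to 0.73) and by -0.31 with EVEN (-0.97 to 0.34), and by -0.12 over both sets (-0.68 to 0.45). For Gm42418 the differences were 0.09 with ODD (-0.71 to 0.88), -0.32 with EVEN (-1.11 to 0.48) and -0.11 over both (-0.80 to 0.57). For Lars2 they were -0.02 (-0.45 to 0.41), 0.06 (-0.37 to 0.49) and 0.02 (-0.36 to 0.39). All had an adjusted p of 1 by edgeR. Every interval held 0, and the widest reached less far than the 5.42 measured for Lhx1os. Between the 2 sets for the same target, ODD was above EVEN by 0.39 for Gm26917 (-0.27 to 1.04) and by 0.40 for Gm42418 (-0.40 to 1.20), neither of which passed the test. Without the second ODD library these were 0.06 and 0.00.

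Set side by side within each experiment, with no test, the probe sets gave the following ratios. In replicate 1, ODD was at 0.937 and EVEN at 0.95 times LacZ for Gm26917, and at 0.959 and 0.942 times for Gm42418. In replicate 2, ODD was at 1.15 and EVEN at 0.689 times LacZ for Gm26917, and at 1.14 and 0.704 times for Gm42418. Gm26917 and Gm42418 thus shifted by nearly the same factor in each library. Malat1 with ODD and EVEN stood at 0.935 and 0.894 times LacZ in replicate 1, near both loci, and at 1.02 and 0.95 times in replicate 2. Lhx1os itself was 79.5 and 66 times its Input in replicate 1 with ODD and EVEN, and 12 and 8.56 times in replicate 2.

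The ratio of the 2 plus-strand loci to each other was followed library by library. Per length, Gm26917 stood at 3.76 and 2.1 times Gm42418 in the Input of replicate 1 and 2. In the pull-downs it stood at 4.89, 4.77 and 4.93 times in replicate 1 (LacZ, ODD, EVEN), and at 4.34, 4.4 and 4.25 times in replicate 2. All replicate 1 pull-downs lay above all replicate 2 pull-downs, with no test, since the 3 pull-downs of a replicate come from 1 experiment. Both Input ratios lay below all pull-down ratios, likewise with no test because the abundance of Gm26917 in the pull-downs chose it.

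**Figure D5:**
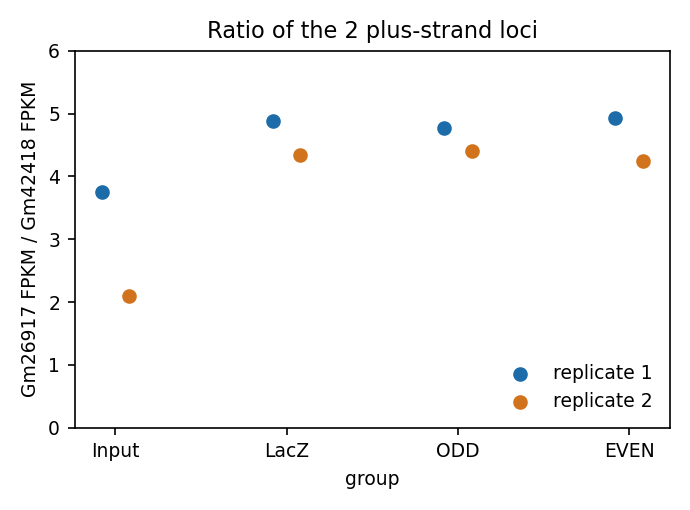
Ratio of the FPKM of Gm26917 to that of Gm42418 in each library, with 1 point per library and the replicates in separate colours. The pull-downs lie at 4.77 to 4.93 in replicate 1 and 4.25 to 4.4 in replicate 2, above the Input values of 3.76 and 2.1.

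Between the experiments, in the fit with group and replicate, Gm42418 was 0.48 higher on the log2 scale in replicate 2 (SE 0.14; edgeR, adjusted p = 0.0374), and 27.4% of all genes tested were called between the replicates in either direction. The opposite-strand gene CT010467.1 was higher by 0.51 (SE 0.15; edgeR, adjusted p = 0.0422). Gm26917 differed by 0.15 (SE 0.18; edgeR, adjusted p = 0.561) and Lars2 by 0.11 (SE 0.10; edgeR, adjusted p = 0.443). These p-values treat the libraries of 1 experiment as its replicates, so they do not measure the spread between experiments. The call for Gm42418 was lost without either LacZ or either ODD library (adjusted p = 0.12 to 0.179). Of the 6 motor neuron markers 4 were higher in replicate 2, as were the spinal interneuron genes En1, Gata3 and Gad1 and 1 of 3 general neuron markers, and 3 of 4 progenitor and 1 of 3 fibroblast markers were lower. The part of this difference between the cultures in the change of Gm42418 was not tested, and in bulk RNA fewer cells of a type and less RNA per cell cannot be told apart.

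Other genes that could hold rRNA reads were scarce. Of the 356 genes of the table classed as nuclear or mitochondrial rRNA, 10 had any count and 3 had at least 10 in total, CT010467.1 and the mitochondrial mt-Rnr1 and mt-Rnr2. The mitochondrial 12S gene mt-Rnr1 had 12 and 18 counts in Input and 1 to 12 in the pull-downs, and no comparison with Input called it (edgeR, adjusted p = 0.889 to 0.953). Gm10800, a locus of satellite-like sequence that also gathers repeat reads, had 2 and 6 counts in Input and 11 to 21 in the pull-downs. It passed the filter on low counts through its pull-down libraries alone. Its log2 differences from Input, 3.53 with LacZ, 2.55 with ODD and 2.64 with EVEN, are therefore given as a description. By sequence, CT010467.1 was the only other gene to match the chromosome 17 loci over at least 100 nt at 90% identity, and likewise at 50 nt and 95%.

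Genes of the protein machinery of rRNA synthesis were counted in the same comparisons. Of 45 genes for RNA polymerase I, its factors and the processing of the precursor, none was called over Input with LacZ or ODD and 1 was higher with EVEN, beside 6.98%, 6.46% and 5.37% of all genes called higher. That gene was Taf1d, a subunit of the polymerase I selectivity factor, at 89.7 and 129 CPM in Input and 223 and 220 with EVEN (log2 1.02, SE 0.21; edgeR, adjusted p = 0.0389). With the replicate block it was also called with LacZ (log2 0.88; adjusted p = 0.0118) and ODD (0.81; adjusted p = 0.017), as were Nop56 with ODD and Utp14a with EVEN (adjusted p = 0.0295 and 0.0218). These were 1, 2 and 2 of 45 genes with LacZ, ODD and EVEN, beside 12.7%, 12.6% and 12.8% of all genes. The median over the list was 0.00 with LacZ, 0.09 with ODD and 0.17 with EVEN, beside -0.05, -0.03 and -0.0019 over all genes.

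The lowest member in all 3 comparisons with Input was Nop10, a protein of the box H/ACA particles that modify rRNA, with log2 differences of -0.92 with LacZ, -1.08 with ODD and -1.0 with EVEN, none past the test (edgeR, adjusted p = 0.443 to 0.527). The highest with LacZ was Dis3, an exosome ribonuclease, at 0.96 (edgeR, adjusted p = 0.296). Dis3 stood at 179 and 68.8 CPM with LacZ, replicate 1 first, and at 62 and 65.7 in Input. Its difference thus rests on the LacZ library of replicate 1. Ubtf, which opens rDNA chromatin for polymerase I, stood at 175 and 169.9 CPM in Input and 163 to 207 in the pull-downs. Ncl, the nucleolar protein nucleolin, stood at 434 and 445 CPM in Input and 379 to 1077 in the pull-downs, and was 0.69 lower on the log2 scale in replicate 2 (edgeR, adjusted p = 0.0294). Nop56, a core protein of the box C/D particles that methylate rRNA, stood at 80 and 109 CPM in Input and at 881 and 210.2 with ODD, a log2 difference of 2.53 that did not pass without the block (edgeR, adjusted p = 0.0642). Between the replicates, Polr1c, Polr1d, Ncl and Wdr12 were lower and Taf1a higher in replicate 2, 4 and 1 of 45 genes beside 12.4% of all genes lower and 15% higher.

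The genes most like Gm26917 over the 8 libraries, by Pearson correlation of log2 CPM among 12009 genes, were Pcdhga8 (r = 0.9983), Gm48726 (0.9981), Gm42973 (0.9981), Pcdhgb5 (0.9978) and Gm42989 (0.9976). Pcdhga8 and Pcdhgb5 encode gamma-protocadherins, cell-surface adhesion proteins of neurons, and the other 3 are unconfirmed transcripts in the annotation. Gm42418 had r = 0.979 and Lars2 r = 0.0864. All 5 stood higher in every pull-down than in the mean of Input, so the correlation spans the gap between Input and pull-downs, and the libraries of a replicate share their batch. Over the 6 pull-downs alone none of those 5 was among the 5 nearest, and Gm42418 had r = 0.959.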

How the data were processed

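RNA from 8 libraries in 4 groups of 2 was read as counts per gene and as FPKM. Per the submitters' processing notes, the authors used cutadapt 3.2, Bowtie2 2.4.2, Picard and HTSeq 0.13.5 with GRCm38; no source used here gives their settings, strand option or annotation release. The deposited counts are whole numbers per gene, not normalised. The FPKM values deposited by the authors equal those recomputed from the counts and the deposited gene length (largest relative difference 6.66e-14), and 99.1% of those lengths equal merged exons of GENCODE M21, whose coordinates and transcripts were used, with RefSeq (GRCm38.p6) for Rn18s-rs5.

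The main test was edgeR 4.0.16 under R 4.3.3 (quasi-likelihood, TMM, filterByExpr, all 8 libraries, no block, 2-sided, Benjamini-Hochberg over 16524 genes, threshold 0.05). The test was also run on simulated counts of independent libraries. These held no replicate effect, which the data have, so that run does not measure the error of the test here. DESeq2 1.42.0, limma 3.58.1 on log2(FPKM + 1) and log2(FPKM + 0.1), other scalings and filters, and leaving out each library were alternatives. CPM are on TMM library sizes. Sequences were compared with BLAST 2.17.0.

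The replicate number is a batch per the labels, and same-numbered libraries deviated together (r = 0.517 to 0.719), so the number pairs libraries across groups. Replicates differed by more than counting noise in each group. The p-values between groups in the main test measure the spread between 2 experiments on 1 cell line. With the block, the difference that the groups of a replicate share is taken out of that spread. Those between replicates treat the libraries of 1 experiment as its replicates, so they do not measure the spread between experiments. The members and gene lists were chosen with earlier results of these data known. Named genes were all 4 members in every library, rRNA-class genes with 10 or more counts, listed loci, sequence relatives, and the 5 genes nearest to Gm26917 among those of at least 5 CPM. The genes nearest to Gm26917 over the pull-downs alone are not reported here. Other genes named from the lists were chosen after their values were seen.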

Additional observations from a re-analysis of the deposited data

How the results depend on the processing

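Each group held 2 libraries, which limits every comparison, and the 0 counts of AY036118 allow no test. With the replicate number as a block, Gm42418 kept its calls over Input (log2 2.55, 2.62 and 2.27; edgeR, adjusted p = 0.000399, 0.000393 and 0.000878), and the block changed no other call of the 4 loci. It moved the number of genes called higher from 1153 to 2092 with LacZ, from 1068 to 2086 with ODD and from 888 to 2123 with EVEN, and those lower from 71 to 1157, from 62 to 1083 and from 47 to 1059. Over all alternatives the genes higher ranged from 212 to 2092, 130 to 2086 and 0 to 2123, and those lower reached down to 0 in each. Between pull-downs, keeping every gene with a count gave up to 60 genes higher and 34 lower.

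Gm42418 with EVEN did not pass on limma with log2(FPKM + 1) (2.23, adjusted p = 0.0817) or log2(FPKM + 0.1) (2.24, adjusted p = 0.0503), nor did its difference between replicates (0.49 in both; adjusted p = 0.275 and 0.271). Gm26917 over Input with EVEN was 2.92 by DESeq2, 2.93 with size factors by relative log expression, 2.93 with no filter beyond 1 count and 3.01 with at least 50 counts in 2 libraries. Lars2, near 0 throughout, changed sign over Input with LacZ by DESeq2 (-0.01) and with no filter (-0.04), and with ODD on total library size (0.00) and at 50 counts (0.05). Against LacZ it changed sign with EVEN on total library size and in both limma fits (-0.01 each), and over both sets with relative log expression (-0.0026), total library size (-0.03), and limma (-0.03 and -0.04). The cause was not tested. Scaling without the 4 loci in the library sizes kept every call and direction of the loci, as did fitting only the groups compared, which was not run between replicates.

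Leaving out 1 library at a time, and so taking a lone library to vary like the others, gave for Gm42418 over Input 2.21 to 2.92 with LacZ, 2.22 to 3.01 with ODD and 1.90 to 2.61 with EVEN, and 0.40 to 0.63 between replicates. Gm26917 over Input with EVEN ranged from 2.87 to 3.04, and between replicates from -0.0045 to 0.25. Lars2 over Input ranged from -0.03 to 0.04, -0.15 to 0.10 and -0.10 to 0.22 with LacZ, ODD and EVEN. Against LacZ, ODD ranged from -0.25 to 0.34 for Gm26917, -0.31 to 0.40 for Gm42418 and -0.15 to 0.10 for Lars2. EVEN against LacZ ranged from -0.45 to -0.16, -0.53 to -0.06 and -0.11 to 0.21 for Gm26917, Gm42418 and Lars2, and both sets from -0.28 to 0.04, -0.33 to 0.14 and -0.06 to 0.10 for Gm26917, Gm42418 and Lars2. ODD against EVEN ranged from 0.06 to 0.66, 0.00 to 0.71 and -0.23 to 0.09 for Gm26917, Gm42418 and Lars2.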
